A study of Homo sapiens with 24 samples.

Results

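The transforming growth factor beta (TGF-beta) genes described here are 9 genes of the pathway. They were chosen by name and not by a cutoff on a measured value, but with earlier results of these data known. They are the ligands TGFB1, TGFB2 and TGFB3, the receptors TGFBR1 and TGFBR2, the signal transducer SMAD3, the inhibitors SMAD7 and SKIL, and the target gene TGFBI. They are 9 of the 60675 genes counted, and all 9 passed the filter on low counts in every comparison. RNA-seq had been made in ACHN, a human renal cancer cell line that the labels call ccRCC, and in HK2, an epithelial line from the proximal tubule of human kidney, in 4 groups per line with 3 replicates each (24 libraries). Cells of the control group carried the control hairpin shNC, shKDM5C cells a hairpin against the histone demethylase KDM5C, shYY1 cells a hairpin against the transcription factor YY1, and Dsh cells hairpins against both. All groups, the controls included, were stable lines made with lentiviral pLKO.1 hairpins and grown with fetal bovine serum. By the study's methods the Dsh cells were YY1-depleted cells infected again with a KDM5C hairpin in a green fluorescent plasmid. They were then selected for puromycin resistance and fluorescence. The methods do not say whether shNC cells had also been infected again, and the reagents of the study include a green fluorescent control plasmid. Which of the hairpins for each gene was used for sequencing is not given in the sources used here.

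TGF-beta ligands are secreted in a latent form, bound to matrix and cell surface proteins, and have to be released before they act. The free ligand binds TGFBR2, which recruits and phosphorylates TGFBR1. TGFBR1 then phosphorylates SMAD2 and SMAD3, which join SMAD4 and enter the nucleus to switch genes on or off. SMAD7 blocks the receptors, SKIL holds SMAD complexes in a repressed state, and both are themselves induced by the signal, so they form feedback loops. In kidney epithelium the pathway is known for growth arrest, epithelial-mesenchymal transition and the deposition of matrix in fibrosis.

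Libraries held between 15926561 and 24272298 read pairs counted on genes. The targeted genes agreed in direction with the labels in every group. KDM5C had a mean of 70.3 CPM (counts scaled to library size, with a correction for composition) in ACHN shNC, 42.8 in shKDM5C and 40.4 in Dsh cells, and 192, 56.9 and 68.0 CPM in the same groups of HK2. YY1 had 138 CPM in ACHN shNC, 76.4 in shYY1 and 96.6 in Dsh cells, and 209, 64.1 and 74.0 CPM in HK2. Relative to shNC, more of both transcripts was left in ACHN than in HK2 cells. Of 8 kidney epithelial lineage markers, 7 in ACHN and 8 in HK2 reached 1 CPM, but of 8 proximal tubule markers at most 2 did in any group, and LRP2, CUBN, SLC34A1, AQP1 and ANPEP stayed below 1 CPM in both lines. Of 4 renal cancer markers, the same 3 reached 1 CPM in the shNC cells of both lines. They were MET (404 CPM in ACHN and 236 in HK2), VEGFA (118 and 82.1) and NDUFA4L2 (1.42 and 1.06). The other, CA9, a hypoxia-induced enzyme typical of clear cell renal cancer, was below 1 CPM in ACHN cells and in HK2 shNC cells. It reached 2.22 CPM in HK2 shYY1 and 8.64 CPM in HK2 Dsh cells. One library stood apart from its group. HK2 shKDM5C replicate 1 differed from the other replicates by 0.547 on the log2 scale per gene on average, where libraries of the other groups differed by 0.0996 to 0.149. Its KDM5C level was 35.8 CPM, against 67.9 and 67.0 CPM in replicates 2 and 3. For each comparison that uses HK2 shKDM5C cells, the count of members called is therefore given with and without this library. Most values printed for single members are given both ways, too.

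Genes are placed on GRCh38 with the gene models of Ensembl release 84. TGFB1 (ENSG00000105329) lies on chromosome 19 from 41301587 to 41353911, TGFB2 (ENSG00000092969) on chromosome 1 from 218346235 to 218444619, and TGFB3 (ENSG00000119699) on chromosome 14 from 75958099 to 75982991. TGFBR1 (ENSG00000106799) lies on chromosome 9 from 99104038 to 99154192 and TGFBR2 (ENSG00000163513) on chromosome 3 from 30606502 to 30694142. SMAD3 (ENSG00000166949) lies on chromosome 15 from 67063763 to 67195195, SMAD7 (ENSG00000101665) on chromosome 18 from 48919853 to 48950711, SKIL (ENSG00000136603) on chromosome 3 from 170357678 to 170396835, and TGFBI (ENSG00000120708) on chromosome 5 from 136028895 to 136063818. TGFB1, TGFB3 and SMAD7 are on the minus strand and the other members on the plus strand. The counting did not use strand. Exons of HNRNPUL1 on the opposite strand covered 6.64% of the TGFB1 exon bases, TGFB3-AS1 covered 3.32% of those of TGFB3, and TGFB2-OT1 on the same strand covered 26.6% of those of TGFB2. Reads in these stretches cannot be given to 1 gene with certainty.

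Because YY1 was one of the targets, the RefSeq promoters of the members (GRCh38.p14) were searched for its core motif. All 9 members had at least 1 window of 300 bases, from 250 bases before to 50 bases after a transcription start, and 24 windows in all. The core GCCATNTT (AANATGGC on the other strand) was found in 6.58% of all 35116 promoter windows and, among the members, in 1 window of TGFBR1. The match began 192 bases upstream of an alternative start of TGFBR1, inside an intron of the gene in GENCODE 44, and is shown in capitals within chr9:99105373-99105400 on the plus strand, since it was the only such match.
TGFBR1: ctctttctcaAACATGGCgcggggccgg
The SMAD-binding letters CAGACA, or TGTCTG on the other strand, were found in 16.9% of all windows and in at least 1 window of 19.9% of all genes. Among the 9 members 3 had a match, TGFB2, TGFBR1 and SMAD3. TGFBR1 and SMAD3 had more than 1 window each, which gives more places for a match. The longer element GTCTAGAC, a palindrome that does not contain CAGACA, was found in 0.202% of all windows and in none of the members'. The promoters of TGFB2 and TGFBI are printed because these were the members with the largest changes in ACHN single and double-knockdown cells. The TGFB2 window is chr1:218345086-218345385, plus strand, and its capitals mark CAGACA, which began 53 bases upstream of the start.
TGFB2: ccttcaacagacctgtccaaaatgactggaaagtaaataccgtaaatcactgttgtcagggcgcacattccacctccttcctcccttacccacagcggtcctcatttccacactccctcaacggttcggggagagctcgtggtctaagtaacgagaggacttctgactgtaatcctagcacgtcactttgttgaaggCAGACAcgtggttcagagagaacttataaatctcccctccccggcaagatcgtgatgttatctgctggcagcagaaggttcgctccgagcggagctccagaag
The TGFBI window is chr5:136028738-136029037, plus strand, and held none of the motifs.
TGFBI: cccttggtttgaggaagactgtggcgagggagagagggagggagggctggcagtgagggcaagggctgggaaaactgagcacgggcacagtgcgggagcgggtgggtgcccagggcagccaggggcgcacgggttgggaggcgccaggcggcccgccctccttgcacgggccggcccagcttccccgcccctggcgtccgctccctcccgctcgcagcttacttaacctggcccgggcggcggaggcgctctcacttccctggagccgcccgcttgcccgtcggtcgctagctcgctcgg
GC content was 51.7% in the TGFB2 window and 72.7% in the TGFBI window, against a median of 58.7% over all windows. A match to these letters is a description of the sequence and says nothing of binding in these cells.

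**Figure D1:**
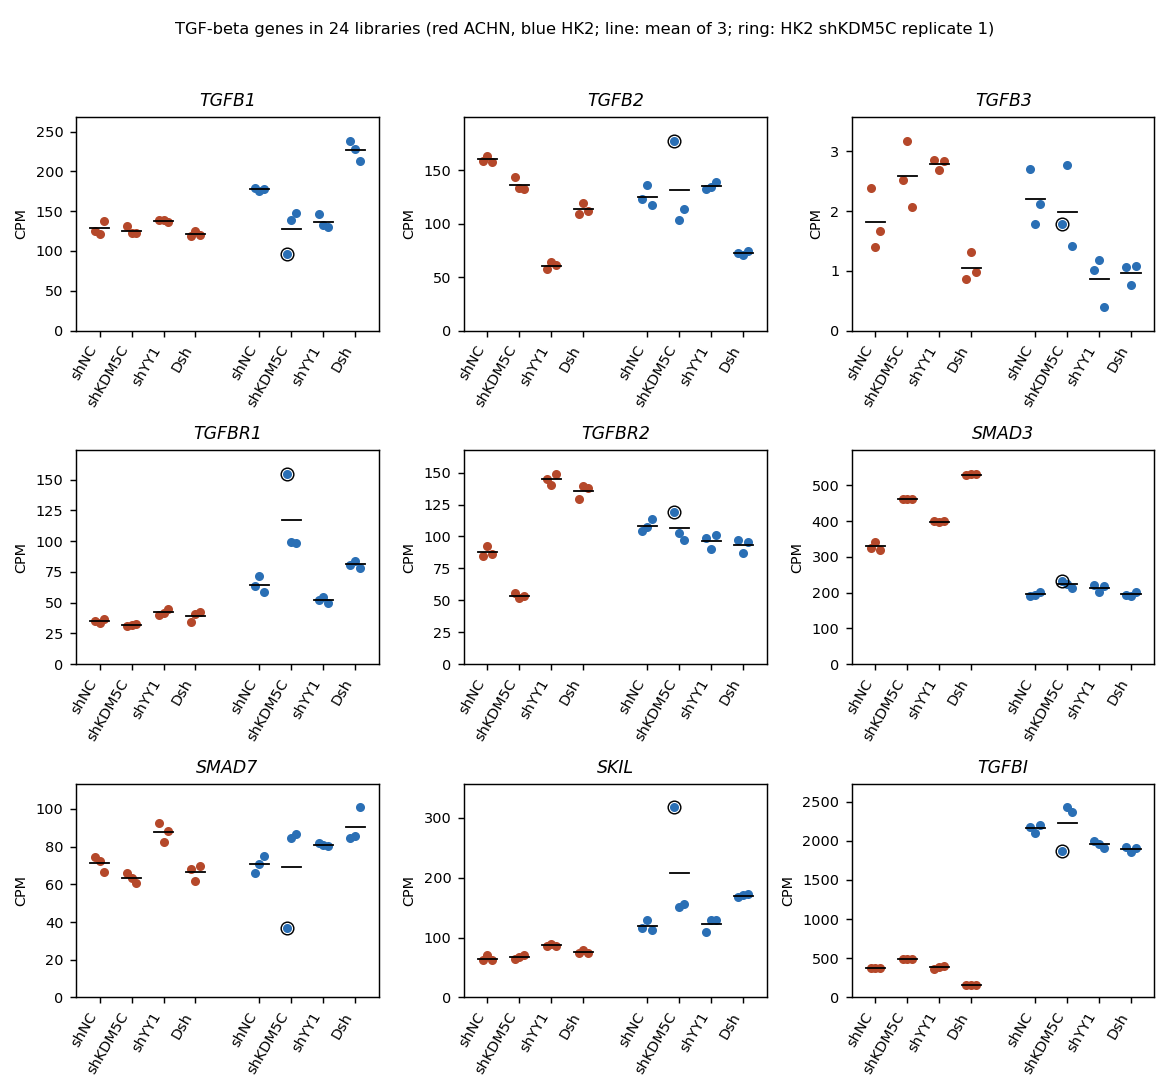
Expression of the 9 TGF-beta genes in CPM (vertical axis, from 0) in every library of the 4 groups of ACHN (red) and HK2 (blue) cells; each point is 1 library, lines are means of 3, and rings mark HK2 shKDM5C replicate 1. TGFB2 was lowest in ACHN shYY1 (57.3 to 64.0 CPM) and TGFBI lowest in ACHN Dsh cells (156 to 164 CPM).

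The shNC cells of the lines differed in most of the genes. Per kilobase of exon, TGFBI, a secreted matrix adhesion protein, was the highest of the 9 in both lines, with 47.5 ± 0.194 CPM per kb (SD, n = 3) in ACHN and 276 ± 6.52 CPM per kb in HK2 shNC cells. In ACHN it was followed by TGFB1 (39.6 ± 2.56 CPM per kb), SMAD3 (36.1 ± 1.28) and TGFB2 (31.0 ± 0.534), and the libraries of TGFB1 and SMAD3 overlapped. SMAD7 (19.3 ± 1.14) and TGFBR2 (18.7 ± 0.885), which also overlapped, SKIL (8.34 ± 0.585) and TGFBR1 (5.11 ± 0.245) came next. In HK2 the next were TGFB1 (54.8 ± 0.575), TGFB2 (24.3 ± 1.88), TGFBR2 (23.1 ± 1.02) and SMAD3 (21.4 ± 0.527), and the libraries of TGFB2 and TGFBR2 overlapped. SMAD7 (19.1 ± 1.22), SKIL (15.3 ± 1.14) and TGFBR1 (9.40 ± 0.936) followed. The TGFB2 length included the 26.6% of its exon bases shared with TGFB2-OT1, so its place in both orders depends on how reads there were counted. TGFB3 was the lowest, at 0.370 ± 0.105 in ACHN and 0.447 ± 0.0952 CPM per kb in HK2, on 7 to 57 read pairs per library over all groups. Between the shNC groups 7 of the 9 members differed at an adjusted p under 0.05 (edgeR), where 76.6% of all 16988 genes tested did. TGFBI was 5.78-fold lower in ACHN than in HK2 (log2 difference -2.53, standard error 0.0298, adjusted p = 8.21e-31). TGFBR1 and SKIL were each 1.83-fold lower in ACHN, TGFB1 was 1.38-fold and TGFBR2 1.23-fold lower, and SMAD3 was 1.70-fold and TGFB2 1.28-fold higher. TGFB3 (log2 difference -0.26, adjusted p = 0.389) and SMAD7 (0.02, adjusted p = 0.743) did not pass the test.

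In ACHN cells each knockdown changed a different pattern of the genes, at sizes that were mostly below 2-fold. With shKDM5C, 4 members fell and 2 rose, 6 of 9 in all, beside 56.6% of the 16184 genes tested (27.7% lower and 28.9% higher). With shYY1, 1 fell and 6 rose, 7 of 9, beside 48.7% of 16370 genes (24.5% lower and 24.2% higher). With the double knockdown 3 fell and 3 rose, 6 of 9, beside 62.6% of 16454 genes (32% lower and 30.7% higher). No member reached an absolute log2 fold change of 1.5, the study's threshold, against shNC in any of the 3, where 3.34%, 3.13% and 8.42% of genes did. The median absolute log2 fold change of the members was 0.24, 0.28 and 0.50 in the order given, and that of all genes tested was 0.27, 0.22 and 0.39. These 3 comparisons share the same shNC libraries. In cell cultures measured in bulk, fewer cells with a transcript and less of it per cell cannot be told apart.

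Of the ligands, TGFB2 was lower in every knockdown of ACHN. Its levels were 159, 163 and 158 CPM in the shNC libraries and 144, 133 and 133 CPM in shKDM5C. They were 57.3, 64.0 and 61.0 CPM in shYY1 and 109, 119 and 111.7 CPM in Dsh. The 4 groups did not overlap, and the order from high to low was shNC, shKDM5C, Dsh and shYY1. TGFB2 fell 2.67-fold with shYY1 (log2 fold change -1.42, standard error 0.0397, adjusted p = 2.82e-25). It fell 1.41-fold with the double knockdown (-0.50, adjusted p = 3.13e-08) and 1.18-fold with shKDM5C (-0.24, adjusted p = 4.73e-06). Dsh cells had more TGFB2 than shYY1 cells (log2 difference 0.90, standard error 0.0542, adjusted p = 2.41e-10), although they also carried the YY1 hairpin. YY1 itself was higher in Dsh than in shYY1 cells, at 90.1 to 104 against 72.7 to 79.5 CPM, and the part of this difference in the TGFB2 result was not tested.

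TGFB1, the most widely expressed ligand, changed little in ACHN cells. Levels were 126, 122 and 138 CPM in shNC, 132, 123 and 122 in shKDM5C, 139, 139 and 136 in shYY1 and 119, 125 and 119.5 CPM in Dsh. All 3 knockdown groups overlapped with shNC, and none passed the test (log2 fold changes -0.05, 0.08 and -0.08). Only against shYY1 was TGFB1 lower in Dsh cells (-0.18, adjusted p = 0.00168). Within each library the ratio of TGFB1 to TGFB2, both per kilobase, was 1.28 ± 0.102 (SD, n = 3) in shNC, 1.46 ± 0.00762 in shKDM5C, 3.61 ± 0.210 in shYY1 and 1.70 ± 0.0315 in Dsh cells, and its ranges did not overlap between the groups. With 3 libraries a group an exact permutation test cannot give a p below 0.1, so the ratio is given without one. The size of the ratio, unlike its order between groups, depends on the exon length taken for TGFB2. Of that length 26.6% was shared with TGFB2-OT1. TGFB3 stood at 1.40 to 2.39 CPM in shNC, 2.06 to 3.18 in shKDM5C, 2.68 to 2.86 in shYY1 and 0.871 to 1.32 CPM in Dsh cells. Its rise with shYY1 (log2 fold change 0.59, adjusted p = 0.0303) and fall with the double knockdown (-0.79, adjusted p = 0.0333) rested on few reads, and each was lost with DESeq2 (adjusted p = 0.131 and 0.128) and when any of 4 single libraries was left out. The difference between Dsh and shYY1 cells was larger (-1.40, standard error 0.255, adjusted p = 0.000132).

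TGFBR2, the receptor that binds the ligand, moved in opposite directions with the 2 single knockdowns in ACHN. Its levels were 85.0, 92.9 and 86.6 CPM in shNC, 55.7, 51.5 and 53.4 in shKDM5C, 145, 140.4 and 149 in shYY1 and 129.5, 139.9 and 138 CPM in Dsh. The shKDM5C libraries were all below and the shYY1 and Dsh libraries all above shNC. TGFBR2 fell 1.66-fold with shKDM5C (log2 fold change -0.73, standard error 0.0472, adjusted p = 1.09e-12). It rose 1.62-fold with shYY1 (0.69, adjusted p = 5.83e-17) and 1.55-fold with the double knockdown (0.63, adjusted p = 3.69e-09). Dsh cells had 2.57-fold more TGFBR2 than shKDM5C cells and lay just below all shYY1 libraries, a difference that did not pass the test (-0.09, adjusted p = 0.122). TGFBR1, the receptor kinase that phosphorylates SMADs, had 35.0, 33.3 and 36.6 CPM in shNC, 31.2, 31.8 and 32.9 in shKDM5C, 40.2, 41.5 and 44.4 in shYY1 and 34.4, 40.6 and 42.4 CPM in Dsh. It rose 1.18-fold with shYY1 (0.24, adjusted p = 0.000646). With shKDM5C it was 1.10-fold lower (-0.14, adjusted p = 0.0467), a call lost with DESeq2 (adjusted p = 0.216), with no filter on low counts and when any of 4 single libraries was left out, and with the double knockdown it did not pass (0.17, adjusted p = 0.0663). It did pass there without Dsh replicate 1 (0.26, adjusted p = 0.00419) and with all groups of the line in the fit (adjusted p = 0.0358).
The ratio of TGFBR2 to TGFBR1 per kilobase was 3.68 ± 0.337 (SD, n = 3) in shNC, 2.44 ± 0.139 in shKDM5C, 5.02 ± 0.210 in shYY1 and 5.07 ± 0.369 in Dsh cells.

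SMAD3, which carries the signal to the nucleus, was higher in every knockdown of ACHN. Levels were 325, 342 and 320.3 CPM in shNC, 463, 462 and 461 in shKDM5C, 400.3, 397 and 400.1 in shYY1 and 528, 532 and 532 CPM in Dsh. No groups overlapped, and the Dsh libraries were the highest. The rise was 1.39-fold with shKDM5C (log2 fold change 0.48, standard error 0.0306), 1.19-fold with shYY1 (0.26, standard error 0.0286) and 1.62-fold with the double knockdown (0.69, standard error 0.0424), with adjusted p-values of 1.05e-12, 3.33e-09 and 6.87e-11.

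The feedback inhibitors moved less than SMAD3 with shKDM5C and with the double knockdown, but not with shYY1. SMAD7 stood at 74.6, 72.6 and 66.5 CPM in shNC, 66.1, 63.2 and 60.7 in shKDM5C, 92.6, 82.6 and 88.3 in shYY1 and 68.2, 61.8 and 69.8 CPM in Dsh. It fell 1.14-fold with shKDM5C (adjusted p = 0.00247) and rose 1.21-fold with shYY1 (adjusted p = 4.23e-06), while Dsh libraries overlapped with shNC (log2 fold change -0.09, adjusted p = 0.191). SKIL had 62.6, 70.2 and 62.0 CPM in shNC, 64.8, 66.9 and 71.6 in shKDM5C, 85.2, 89.2 and 86.5 in shYY1 and 73.9, 79.9 and 74.7 CPM in Dsh. The shYY1 libraries were the highest of both genes. SKIL rose 1.32-fold with shYY1 (0.40, adjusted p = 3.81e-09) and 1.18-fold with the double knockdown (0.23, adjusted p = 0.00195), and with shKDM5C it did not pass (0.05, adjusted p = 0.447).

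TGFBI, the target gene, had its largest change in ACHN Dsh cells. Levels were 370.1, 373 and 370.5 CPM in shNC, 493, 496 and 496 in shKDM5C, 367, 388 and 397 in shYY1 and 156, 164 and 163 CPM in Dsh. The shKDM5C libraries were all above and the Dsh libraries all below those of shNC, and shYY1 overlapped with shNC. TGFBI rose 1.32-fold with shKDM5C (by 0.40 on the log2 scale, standard error 0.0281, adjusted p = 5.24e-12). It fell 2.30-fold with the double knockdown (-1.20, standard error 0.0431, adjusted p = 3.02e-14) and was 3.04-fold lower in Dsh than in shKDM5C cells (-1.60, adjusted p = 8.58e-15). Between Dsh cells and either single knockdown of the same line, that was the only change of a member to pass the study's fold threshold, which 6.67% of genes passed there and 9.74% between Dsh and shYY1 cells (3.12% in each of these comparisons in HK2). Against shKDM5C cells 7 of 9 members differed in Dsh cells beside 62.5% of 16112 genes, and against shYY1 cells 7 of 9 did beside 64.6% of 16414 genes. Marker sums also differed in the ACHN Dsh libraries. The 8 kidney epithelial lineage markers summed to 2041 to 2260 CPM, against 3046 to 3090 CPM in shNC, and the 5 fibroblast and mural cell markers to 7.54 to 8.38 against 32.0 to 32.3 CPM, with PDGFRA, DCN, LUM and COL3A1 below 1 CPM in both groups. The lineage markers did not move together, as mean KRT8 was 1404 CPM in shNC and 698 in Dsh, KRT19 702 and 427, and PAX8 541 and 714 CPM. The 8 proximal tubule markers summed to 119 to 134 against 72.2 to 74.9 CPM, and the 4 renal cancer markers to 644 to 706 against 520 to 526 CPM. GGT1 made up most of the proximal tubule sum, with means of 70.3 CPM in shNC and 123 in Dsh. SLC5A2 fell from 1.82 to 0.638 CPM, and the other proximal tubule markers stayed below 1 CPM. MET made up most of the renal cancer sum, with means of 404 CPM in shNC and 590 in Dsh. VEGFA fell from 118 to 77.2 CPM and NDUFA4L2 from 1.42 to 0.689 CPM, and CA9 stayed below 1 CPM. The part of all these markers in the results of the double knockdown was not tested.

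In HK2 cells the double knockdown moved the ligands TGFB1 and TGFB2 apart. With shYY1, 5 members fell and 2 rose, 7 of 9 beside 29.1% of 16071 genes (14.7% lower and 14.3% higher). With the double knockdown 4 fell and 4 rose, 8 of 9 beside 49.8% of 16217 genes (24.3% lower and 25.5% higher). With all HK2 groups in the fit, 0 members passed with shYY1 in edgeR (beside 5.42% of genes), though 2 had an unadjusted p under 0.05. DESeq2 on the compared groups alone called 6 with shYY1 (beside 25.5%). With the double knockdown 2 passed in the fit of all HK2 groups, TGFB2 and TGFB3 (beside 22.9%). When shKDM5C replicate 1 was left out of that fit, 7 passed with shYY1 (beside 27.7%) and 8 with the double knockdown (beside 45.5%). With shKDM5C 0 of the 9 passed in edgeR, beside 1.32% of 16161 genes (0.656% lower and 0.668% higher), while 3 had an unadjusted p under 0.05. DESeq2 called 1 with shKDM5C, TGFBR1 (beside 3.53% of genes). Without replicate 1 of shKDM5C 7 members passed, beside 22.3% of 16642 genes. No member reached an absolute log2 fold change of 1.5, where 0.501%, 1.29% and 4.3% of genes did with shKDM5C, shYY1 and the double knockdown. The median absolute log2 fold changes of the members were 0.12, 0.17 and 0.36 in that order, and those of all genes 0.28, 0.20 and 0.31. These comparisons, too, share their shNC libraries.

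TGFB1 had 179, 176 and 178 CPM in HK2 shNC, 96.4, 139 and 147 in shKDM5C, 146, 132 and 131 in shYY1 and 239, 228 and 213 CPM in Dsh. Both single knockdowns were below and the double knockdown above every shNC library. TGFB1 fell 1.30-fold with shYY1 (log2 fold change -0.38, standard error 0.0529, adjusted p = 8.57e-06) and rose 1.28-fold with the double knockdown (0.36, standard error 0.0472, adjusted p = 1.38e-07). With shKDM5C the change was -0.46 (adjusted p = 0.245), and without replicate 1 it was -0.32 (adjusted p = 1.88e-05). TGFB2 went the other way. Its levels were 123, 136 and 117 CPM in shNC, 178, 104 and 113 in shKDM5C, 133, 134 and 139 in shYY1 and 73.0, 70.3 and 74.0 CPM in Dsh, which lay below all other HK2 libraries. TGFB2 fell 1.72-fold with the double knockdown (-0.78, standard error 0.0575, adjusted p = 8.41e-13) and did not pass with shYY1 (0.11, adjusted p = 0.157). With shKDM5C its value changed sign with 1 library, from 0.10 (adjusted p = 0.838) to -0.21 (adjusted p = 0.0132) without replicate 1. The ratio of TGFB1 to TGFB2 per kilobase was 2.26 ± 0.187 (SD, n = 3) in shNC, 1.69 ± 0.713 in shKDM5C, 1.60 ± 0.134 in shYY1 and 4.98 ± 0.352 in Dsh cells. In shKDM5C it was 0.864 in replicate 1 and 2.13 and 2.07 in replicates 2 and 3, which lay within the shNC range of 2.05 to 2.41. The size of the ratio again depends on the exon length taken for TGFB2.
TGFB3 was at 1.78 to 2.70 CPM in shNC, 1.42 to 2.77 in shKDM5C, 0.404 to 1.19 in shYY1 and 0.759 to 1.08 CPM in Dsh. It fell with shYY1 (log2 fold change -1.34, standard error 0.396, adjusted p = 0.0131) and with the double knockdown (-1.17, adjusted p = 0.00781). Both calls were lost without shNC replicate 1 (adjusted p = 0.0736 and 0.0533), and the first also without shYY1 replicate 3 (adjusted p = 0.0683).

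The HK2 receptors differed from those of ACHN in how they moved. TGFBR1 had 63.3, 71.2 and 58.5 CPM in shNC, 154, 99.2 and 98.5 in shKDM5C, 52.3, 54.4 and 49.4 in shYY1 and 80.7, 84.1 and 78.4 CPM in Dsh. The shKDM5C and Dsh libraries were all above and the shYY1 libraries all below shNC. TGFBR1 fell 1.24-fold with shYY1 (log2 fold change -0.31, adjusted p = 0.00277) and rose 1.27-fold with the double knockdown (0.34, adjusted p = 5.12e-05). With shKDM5C it was at 0.89 (standard error 0.218, adjusted p = 0.132), and at 0.62 (standard error 0.0677, adjusted p = 1.90e-07) without replicate 1. TGFBR2 stayed within a narrow range, at 104, 108 and 114 CPM in shNC, 119, 102 and 97.4 in shKDM5C, 98.8, 90.2 and 101 in shYY1 and 97.0, 87.1 and 95.5 CPM in Dsh. It fell 1.16-fold with the double knockdown (-0.21, adjusted p = 0.0018) and 1.12-fold with shYY1 (-0.17, adjusted p = 0.0368), the second call being lost with DESeq2 (adjusted p = 0.0513) and without any of 3 single libraries. The ratio of TGFBR2 to TGFBR1 per kilobase was 2.47 ± 0.322 in shNC, 1.35 ± 0.204 in shKDM5C, 2.72 ± 0.289 in shYY1 and 1.68 ± 0.148 in Dsh cells (SD, n = 3). In shKDM5C it was 1.12 in replicate 1 and 1.502 and 1.44 in the other two, all below shNC.

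SMAD3 had 192, 192 and 200.3 CPM in HK2 shNC, 234, 224 and 213 in shKDM5C, 220.5, 203 and 218 in shYY1 and 193, 191 and 202 CPM in Dsh. Dsh libraries overlapped with shNC (0.01 on the log2 scale, standard error 0.0449, adjusted p = 0.833). With shYY1 it rose 1.10-fold (adjusted p = 0.0448), a call lost when any 1 of 5 libraries was left out, with total counts as the scale, with no filter and with all groups in the fit. With shKDM5C it was at 0.22 (adjusted p = 0.376) with and 0.16 (adjusted p = 0.00976) without replicate 1.
SMAD7 had 66.1, 70.5 and 75.2 CPM in shNC, 36.9, 84.5 and 86.6 in shKDM5C, 81.7, 80.8 and 80.1 in shYY1 and 84.4, 85.7 and 101 CPM in Dsh. The value of 36.9 in shKDM5C replicate 1 was the lowest of the 24 libraries. SMAD7 rose 1.29-fold with the double knockdown (0.36, adjusted p = 2.19e-05) and 1.15-fold with shYY1 (0.20, adjusted p = 0.0186, but 0.128 without shNC replicate 1 and 0.0565 without shNC replicate 2). With shKDM5C its value went from -0.02 (adjusted p = 0.978) to 0.27 (adjusted p = 0.00215) without replicate 1.
SKIL had 116, 129 and 112.2 CPM in shNC, 318, 152 and 157 in shKDM5C, 109, 129.6 and 129 in shYY1 and 168, 171 and 172 CPM in Dsh. The shKDM5C and Dsh libraries were all above shNC, and shYY1 overlapped with it. SKIL rose 1.44-fold with the double knockdown (0.52, standard error 0.0516, adjusted p = 5.32e-10) and did not pass with shYY1 (0.04, adjusted p = 0.709). With shKDM5C it was at 0.84 (adjusted p = 0.274), and at 0.37 (adjusted p = 2.06e-05) without replicate 1.

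TGFBI, the most abundant member in HK2, had 2173, 2099.8 and 2198 CPM in shNC, 1867, 2425 and 2371 in shKDM5C, 1993, 1956 and 1909.6 in shYY1 and 1924, 1854 and 1909 CPM in Dsh. It fell 1.10-fold with shYY1 (log2 fold change -0.14, adjusted p = 0.00527) and 1.13-fold with the double knockdown (-0.18, standard error 0.0332, adjusted p = 4.5e-05). With shKDM5C it was at 0.06 (adjusted p = 0.81), and at 0.15 (adjusted p = 0.000358) without replicate 1. Against shYY1 cells 5 of 9 members differed in Dsh cells, beside 47.7% of 15947 genes, led by TGFB2 (-0.89), TGFB1 (0.75) and TGFBR1 (0.65). Against shKDM5C cells 2 of 9 did, TGFB1 (0.82) and TGFB2 (-0.88), beside 11.9% of 16042 genes, both lost without any of the Dsh libraries. Without shKDM5C replicate 1 they were at 0.67 and -0.57, and 7 of 9 passed, beside 43.3%. Fibroblast and mural cell markers summed to 64.6 to 73.3 CPM in HK2 Dsh against 10.4 to 12.9 CPM in shNC libraries, and the lineage markers to 1924 to 2046 against 3453 to 3555 CPM. In HK2 shYY1 libraries the same sums were 30.8 to 35.7 and 2456 to 2625 CPM. LUM made up most of the first sum, with means of 10.5 CPM in shNC, 31.5 in shYY1 and 60.9 CPM in Dsh. PDGFRA and COL3A1 were below 1 CPM in these groups, and the part of these genes in the results was not tested.

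**Figure D2:**
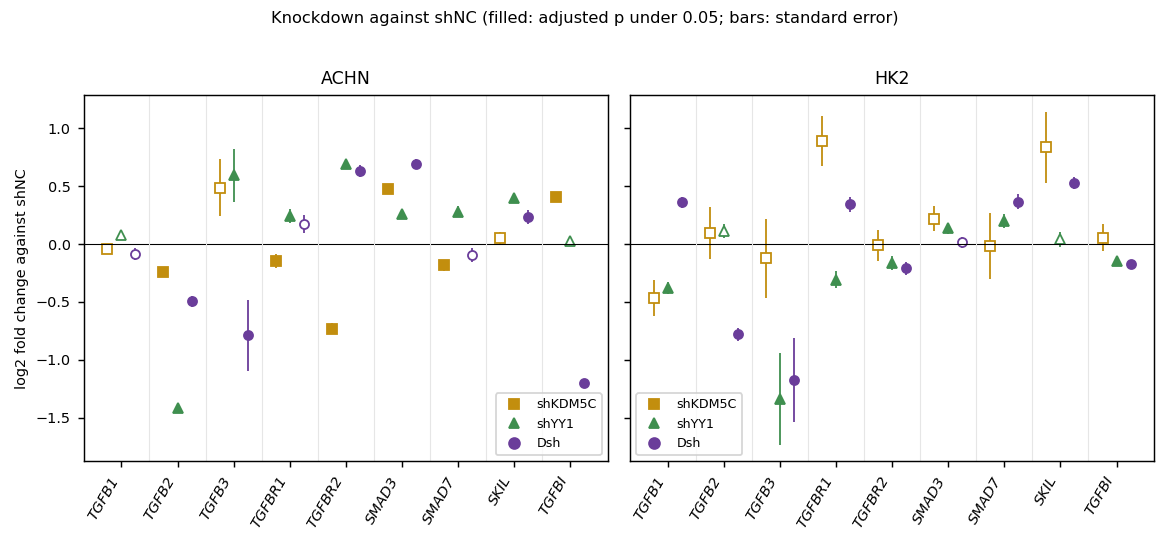
Log2 fold changes against shNC (vertical axis) of the 9 genes (horizontal axis) in ACHN (left) and HK2 (right) cells for shKDM5C (squares), shYY1 (triangles) and Dsh (circles); filled symbols passed an adjusted p under 0.05 and bars are standard errors. The TGFB2 change with shYY1 in ACHN (-1.42) and the TGFBI change in ACHN Dsh cells (-1.20) stand out, and no shKDM5C symbol is filled in HK2.

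Whether the 2 knockdowns acted together differently from the sum of their single effects was tested by their interaction on the log2 scale. In ACHN cells 6 of the 9 members departed from the sum, beside 55.6% of 17228 genes. The largest departures were those of TGFB3 (-1.90, standard error 0.358, adjusted p = 6.94e-05), TGFBI (-1.66, standard error 0.0515, adjusted p = 6.68e-19) and TGFB2 (1.14, standard error 0.0662, adjusted p = 1.72e-13). For TGFBI the single changes added up to 0.43, and the double knockdown gave -1.20. For TGFB2 they added up to -1.66, and the double knockdown gave -0.50. TGFBR2 had single changes that cancelled (sum -0.04) and a double-knockdown change of 0.63 (interaction 0.64, adjusted p = 6.85e-09). SKIL (-0.24, adjusted p = 0.00838) and SMAD7 (-0.21, adjusted p = 0.0261) departed less, and both calls were lost with total counts as the scale (adjusted p = 0.113 and 0.222), which shifted the median of all genes by 0.11. The SMAD7 call was also lost without any of 4 single libraries. SMAD3 of Dsh cells (0.69) lay near the sum of its single changes (0.73), with an interaction of -0.06 (standard error 0.0476, adjusted p = 0.268).
In HK2 cells 2 members departed from the sum, beside 9.61% of 17093 genes. TGFB1 had single changes that added up to -0.85 and a double-knockdown change of 0.36 (interaction 1.20, standard error 0.177, adjusted p = 0.00128). TGFB2 had a sum of 0.21 and a double-knockdown change of -0.78 (interaction -0.99, standard error 0.240, adjusted p = 0.0218), a call lost without any of 7 single libraries (adjusted p = 0.0505 to 0.0641). Without shKDM5C replicate 1 the interaction of TGFB1 was 1.07 and that of TGFB2 -0.67, and SMAD3 (-0.28, adjusted p = 0.00283) and TGFBI (-0.17, adjusted p = 0.00797) passed as well, 4 of 9 beside 28.7% of genes.

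**Figure D3:**
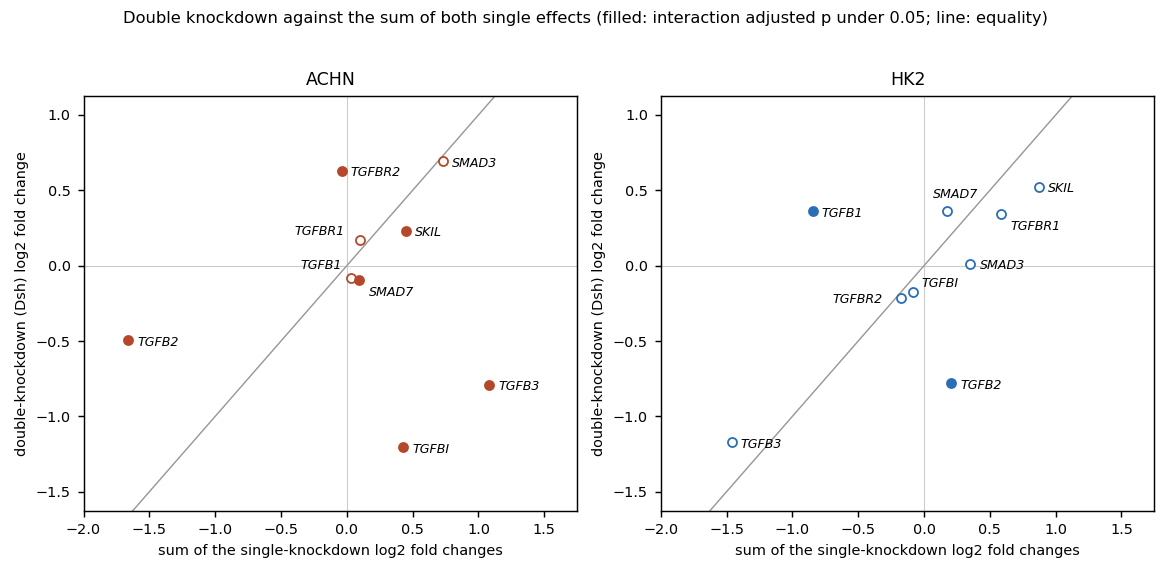
Log2 fold change of the double knockdown (vertical axis) against the sum of the log2 fold changes of shKDM5C and shYY1 (horizontal axis) for the 9 genes in ACHN (left) and HK2 (right) cells; the line marks equality and filled points had an interaction at an adjusted p under 0.05. In ACHN, TGFBI (0.43 against -1.20) lies far below the line and TGFB2 (-1.66 against -0.50) above it, and in HK2 TGFB1 lies above and TGFB2 below it.

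The effect of each knockdown was compared between the lines by the difference of their log2 fold changes, ACHN minus HK2. For shYY1, 7 of 9 members differed, beside 33.1% of 18010 genes. TGFB2 differed by -1.52 (standard error 0.0702, adjusted p = 2.55e-16), having fallen in ACHN and not passed the test in HK2. TGFB3 differed by 1.94 (standard error 0.435, adjusted p = 0.000795), TGFBR2 by 0.87 (adjusted p = 3.72e-11) and TGFBR1 by 0.56 (adjusted p = 4e-05), and all 3 had moved in opposite directions in the lines. For the double knockdown 7 of 9 differed, beside 46% of 18087 genes. TGFBI differed by -1.01 (standard error 0.0521, adjusted p = 1.68e-15), having fallen in both lines, TGFBR2 by 0.86 (adjusted p = 1.66e-10), SMAD3 by 0.70 (adjusted p = 7.99e-11) and SMAD7 by -0.44 (adjusted p = 0.000378). TGFB2 differed by 0.30 (adjusted p = 0.00137), as it fell more in HK2. For shKDM5C 2 of 9 differed, TGFBR1 by -1.02 (adjusted p = 0.0135) and TGFBR2 by -0.71 (adjusted p = 0.0048), beside 11.9% of 17948 genes. Without replicate 1 of HK2 shKDM5C they differed by -0.75 and -0.60, and 7 of 9 members passed, beside 33.9%. The 3 differences share the shNC libraries of both lines, and the depth of the knockdown differed between the lines as given above for KDM5C and YY1.

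Other genes of the pathway were taken from a list of 51, sorted by role into latency and activation (11), receptors, co-receptors and transducers (9), inhibitors (12) and transcriptional targets (19). The list was chosen with earlier results of these data known. In ACHN 18 fell and 16 rose of 50 tested with shKDM5C (68% called, beside 56.6% of all genes), 12 fell and 22 rose with shYY1 (68%, beside 48.7%), and 14 fell and 26 rose with the double knockdown (80%, beside 62.6%). In HK2 1 fell and 2 rose of 47 with shKDM5C (6.38%, beside 1.32%), or 13 and 13 of 47 without replicate 1 (55.3%, beside 22.3%). There 14 fell and 11 rose of 47 with shYY1 (53.2%, beside 29.1%), and 9 fell and 26 rose of 48 with the double knockdown (72.9%, beside 49.8%). By role, latency and activation genes in ACHN Dsh cells were called in 11 of 11 (2 fell and 9 rose) and transcriptional targets in 18 of 19 (9 fell and 9 rose), so the targets did not move one way. Of the receptors, co-receptors and transducers there 2 fell and 2 rose of 9 (44.4%), and of the inhibitors 1 fell and 6 rose of 11 (63.6%), beside 62.6% of all genes. In HK2 Dsh cells 9 of 12 inhibitors rose and 1 fell (83.3%), against 70% of latency and activation genes, 50% of receptors, co-receptors and transducers and 77.8% of targets called, beside 49.8% of all genes.

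Some of the genes of this list with the largest changes are named here. With shKDM5C in ACHN, the collagen gene COL1A1 fell from 581 ± 27.3 to 49.3 ± 2.68 CPM (SD, n = 3, log2 fold change -3.57). With shYY1 in ACHN, LRRC32, which holds latent TGF-beta at the cell surface, rose from 6.69 ± 0.473 to 50.3 ± 2.34 CPM (2.88), and FN1, the matrix protein fibronectin, fell from 3351 ± 156 to 876 ± 35.9 CPM (-1.96). In ACHN Dsh cells the chromatin protein gene HMGA2 rose from 43.1 ± 3.31 to 386 ± 14.1 CPM (3.17) and the smooth muscle gene TAGLN fell from 31.6 ± 1.5 to 6.56 ± 1.23 CPM (-2.26). HMGA2 also rose in HK2 Dsh cells, from 185 ± 6.72 to 907 ± 27.2 CPM (2.30), while THBS1, the thrombospondin that can activate latent TGF-beta, fell from 727 ± 27.3 to 132 ± 5.94 CPM (-2.45). With shYY1 in HK2 the co-receptor gene ENG fell from 22.4 ± 2.46 to 7.21 ± 1.40 CPM (-1.63) and THBS1 to 465 ± 10.4 CPM (-0.65). With shKDM5C in HK2 TAGLN fell (-1.14, adjusted p = 0.0181) and the integrin gene ITGB6 rose (1.07, adjusted p = 0.0102), and without replicate 1 the values were -1.03 and 1.03. Each of the other changes in this paragraph had an adjusted p under 0.05 (edgeR).

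**Figure D4:**
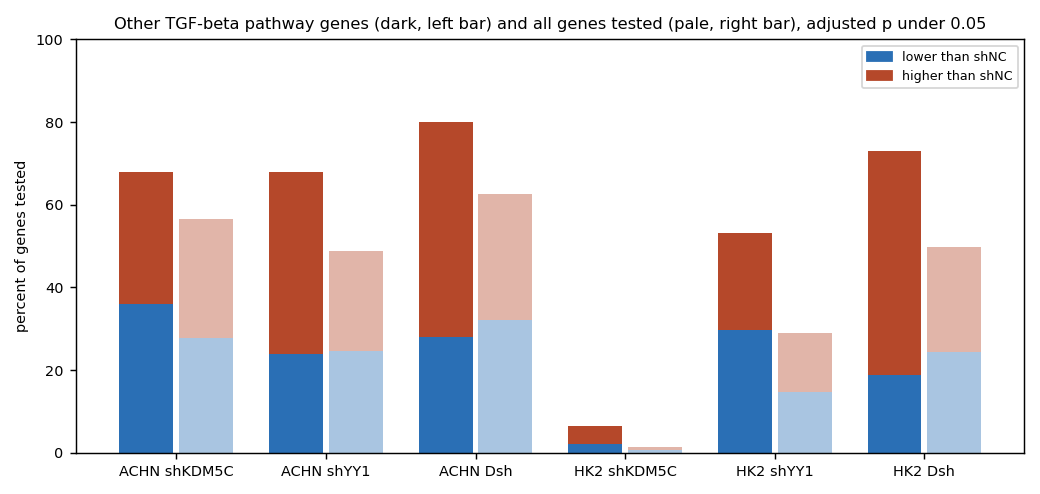
Percent of genes tested (vertical axis, from 0) that were lower (blue) or higher (red) than shNC at an adjusted p under 0.05, for the 51 other pathway genes (dark, left bar of each pair) and all genes tested (pale, right bar) in 6 comparisons. The pathway bar is the taller one in each pair, from 6.38% against 1.32% in HK2 shKDM5C to 80% against 62.6% in ACHN Dsh cells. The pathway genes were chosen with earlier results of these data known.

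The gene with the most similar profile to a member was sought among 10078 others by Pearson r of log2(CPM + 1) over the 24 libraries after the mean of each line was taken out. These points share their libraries and groups, so r is a description. TGFBI was most like STMN1, which encodes a microtubule-destabilizing protein (r = 0.959), but the likeness lay in ACHN (0.993) and not in HK2 (0.146). TGFB1 was most like TMC6 (r = 0.943), with 0.979 in HK2 and 0.443 in ACHN. TGFBR1 was most like ASH1L (0.934), with 0.977 in HK2 and 0.516 in ACHN, and TGFBR2 most like DSC3 (0.917), with 0.954 in ACHN and 0.479 in HK2. SMAD3 with BRPF3 (0.956), SMAD7 with PDIA4 (0.936), SKIL with EEA1 (0.954) and TGFB3 with GTSE1 (0.827) were alike in both lines, at 0.739 or more in each. Without HK2 shKDM5C replicate 1 the HK2 values of these 4 members were 0.754 or more, that of TGFB1 was 0.971, of TGFBR1 0.969, of TGFBR2 0.499 and of TGFBI 0.0232.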

How the data were processed

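The 24 tables hold raw counts of read pairs per gene, deposited without normalization. Per the study's methods and the submitters' processing notes, reads were aligned with HISAT2 2.0.5 and counted with featureCounts. The notes give version 1.5.0-p3, while all 24 file headers give 2.0.1, paired mode, no strand option and the Ensembl 84 annotation of GRCh38. Groups came from the labels, which say nothing of separate cultures, so p-values measure the spread between these samples. Levels are CPM with TMM factors over all libraries. Each comparison was fitted on its own groups with edgeR 4.0.16 (R 4.3.3): filterByExpr, TMM, quasi-likelihood F test, Benjamini-Hochberg adjustment over all genes tested, threshold 0.05. Standard errors were derived from the F statistic. The steps were tested on simulated data for some of the comparisons, none with HK2 shKDM5C cells and none with a library that stood apart. The members, lists and alternatives were chosen with earlier results of these data known. Genes named beside the members are KDM5C and YY1 and, from the pathway list, the 2 with the largest change per comparison with shNC, at 10 CPM or more in the higher group and an adjusted p under 0.05, and the 1 gene most alike in profile to each member. Some genes that these rules select are not reported here. Alternatives were DESeq2 1.42.0, RLE and total-count scaling, no filter, all groups of the lines in the fit, a replicate block and each library left out. All groups without HK2 shKDM5C replicate 1, and profile likeness in HK2 without it, were added after seeing the data.
Same-numbered libraries showed no correlation over 0.1 between groups, and whether the numbers stood for matched cultures is not given. No 2 replicates agreed within sampling noise. Promoters are from RefSeq.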

Additional observations from a re-analysis of the deposited data

Results flagged for a closer look

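The results below are members whose response to a knockdown differed between the lines by a test of the difference itself, given as the log2 fold change in ACHN minus that in HK2. For shKDM5C they were TGFBR1 (-1.02) and TGFBR2 (-0.71). For shYY1 they were TGFB1 (0.47), TGFB2 (-1.52), TGFB3 (1.94), TGFBR1 (0.56), TGFBR2 (0.87), SKIL (0.37) and TGFBI (0.18). For the double knockdown they were TGFB1 (-0.42), TGFB2 (0.30), TGFBR2 (0.86), SMAD3 (0.70), SMAD7 (-0.44), SKIL (-0.27) and TGFBI (-1.01). TGFBR2 differed under each of the 3 knockdowns. Without HK2 shKDM5C replicate 1, TGFB1 (0.28), SKIL (-0.31) and TGFBI (0.26) also passed for shKDM5C, so that they, too, differed under all 3. TGFB3 rested on few reads in both lines.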

How the results depend on the processing

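Of 144 member results, 141 kept their side of the threshold with RLE scaling, 140 without the filter, 136 with total counts and 134 with DESeq2. With 1 library left out 1053 of 1134 did. Signs of values that passed in neither fit were not counted. Among the others 3 turned, all without HK2 shKDM5C replicate 1: against shNC, TGFB2 (-0.21) and SMAD7 (0.27), and for Dsh against shKDM5C, SKIL (0.15). Over the libraries left out these ranged from -0.21 to 0.25, -0.20 to 0.27 and -0.50 to 0.15. Leaving out 1 library, members called ranged from 0 to 7 for HK2 shKDM5C, 4 to 6 for HK2 shYY1 (4 without shNC replicate 1), 0 to 7 for HK2 Dsh against shKDM5C (0 without any 1 of the Dsh libraries, 1 without shKDM5C replicate 2 or 3, 7 without replicate 1), 1 to 4 for the HK2 interaction (1 without shNC replicate 1 or 3, shYY1 replicate 2 or 3, or any Dsh library) and 2 to 7 for the shKDM5C difference between lines. The shares of all genes called also ranged widely over these fits. They were, in that order, 0% to 22.3%, 22.1% to 26.6%, 2.31% to 43.3%, 5.4% to 28.7% and 6.81% to 33.9%. For HK2 shKDM5C 1 member was called without the filter (beside 1.24% of genes) and 1 with DESeq2 (beside 3.53%).
With all groups in the fit, members called were 3 for HK2 shKDM5C (beside 7.84% of genes), 0 for HK2 shYY1 (beside 5.42%) and 2 for HK2 Dsh (beside 22.9%). For HK2 Dsh against shYY1 there were 3 (beside 22%). For the shKDM5C difference TGFB1, SMAD3, SKIL and TGFBI passed as well, and for the Dsh difference TGFB2, SMAD7 and SKIL no longer did. With HK2 shKDM5C replicate 1 left out of that fit, HK2 shYY1 had 7 (beside 27.7%), HK2 Dsh 8 (beside 45.5%) and HK2 Dsh against shYY1 6 (beside 44.9%). TGFB2, SMAD7 and SKIL then passed again for the Dsh difference.
No replicate pair correlated over 0.1 across groups (-0.0626 to 0.0554 in ACHN, -0.220 to 0.0894 in HK2), so no shared replicate effect was seen. This cannot show whether the numbers stood for matched cultures, which the labels do not say. The replicate block left 131 of 135 results as they were. It took HK2 Dsh against shKDM5C from 2 members (beside 11.9% of genes) to 0 (beside 4.97%). It took TGFBR1 in ACHN shKDM5C to an adjusted p of 0.0505 and SMAD3 in HK2 Dsh against shYY1 to 0.0449. No block could be fitted for the comparison of the shNC groups. Depth limits TGFB3 most.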
